A study of Mus musculus with 2 samples.

Results

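The genes described here are 43 named genes of T cells and natural killer (NK) cells, out of 34745 genes in a deposited table of read counts from mouse ear skin. They were chosen by name and matched through GENCODE M21, and all 43 were in the table. They cover the T cell receptor and its CD3 chains, coreceptors and costimulatory receptors, the kinases and adaptors next to the receptor, cytokine receptors, lineage transcription factors and the cytotoxic granule and NK receptor genes. One library was labelled KAT8-cKO, a conditional knockout of the histone acetyltransferase gene Kat8, and 1 was labelled WT. Each group was treated with 30 mg of 5% imiquimod cream per ear once a day for 3 days, and the ears were taken on day 4. Imiquimod is an agonist of TLR7 that produces a psoriasis-like inflammation. The promoter or cell type behind the knockout, and the strain, sex, age and number of mice, are not given here by the labels.

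A T cell recognises antigen through a receptor made of an alpha and a beta chain, or of a gamma and a delta chain. Those chains signal only through the CD3 chains beside them. The kinase LCK, held at the coreceptors CD4 and CD8, phosphorylates the CD3 tails, ZAP70 docks there, and ZAP70 then phosphorylates the adaptors LAT and SLP-76. Cytotoxic T cells and NK cells kill with perforin, which opens the target membrane, and granzymes, which enter and cleave proteins inside. Mouse epidermis is home to gamma delta T cells, and the dermis holds further gamma delta, alpha beta and innate lymphoid cells.

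The libraries were 1 per label, so no test was possible and the spread between animals is unknown. The library labelled cKO held 13727524 counts and the library labelled WT 12179608, and 1 count was worth 0.0689 and 0.0868 CPM, scaled counts per fixed total of reads. Intervals below are exact 95% intervals of the counts and cover counting error only. Kat8 was not lower in the library labelled cKO (351 counts, against 219 in the library labelled WT, a ratio of CPM of 1.27, interval 1.07 to 1.51). These counts cover the whole gene and may include undeleted exons and cells. Why Kat8 was higher in the library labelled cKO was not tested. Sex-linked transcripts differed too, with 6 counts of Xist in the library labelled cKO and 11891 in the library labelled WT, and 838 and 0 counts of the Y-linked gene Eif2s3y. Genotype label and sex-linked transcripts cannot be told apart. The specimens also differed in tissue make-up, with adipocyte markers 15.6-fold and skeletal muscle markers 5.46-fold lower in the library labelled cKO. Both libraries were rich in keratinocyte transcripts, as skin is, with 28980 CPM over 8 markers in the library labelled cKO and 28291 CPM in the library labelled WT. In bulk skin, fewer cells of a type and less RNA per cell cannot be told apart either.

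Sequences show one limit of the receptor counts before the values are given. The beta constant genes Trbc1 and Trbc2 (chromosome 6, GRCm38, plus strand) encode alternative constant regions of the same beta chain. Their coding sequences were 95.6% identical over 518 bases, with 23 differing bases and a longest identical run of 259 bases. The first constant exon, 375 bases long, differed at 1 base. Its first 120 bases are the same letters in Trbc1 (chr6:41538218-41538337) and Trbc2 (chr6:41546730-41546849), so a read from there fits either gene.
Trbc1 and Trbc2, first constant exon: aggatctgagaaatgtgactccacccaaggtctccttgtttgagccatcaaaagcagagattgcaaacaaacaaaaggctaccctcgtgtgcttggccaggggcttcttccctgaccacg
The third constant exon, 107 bases long (chr6:41539229-41539335 in Trbc1 and chr6:41547772-41547878 in Trbc2), does tell them apart. Capitals mark the 15 bases that differ between the genes, in sequences taken from GENCODE M21 transcripts.
Trbc1, the third constant exon: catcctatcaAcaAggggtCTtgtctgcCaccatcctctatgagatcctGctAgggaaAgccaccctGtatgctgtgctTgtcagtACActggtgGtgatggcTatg
Trbc2, the third constant exon: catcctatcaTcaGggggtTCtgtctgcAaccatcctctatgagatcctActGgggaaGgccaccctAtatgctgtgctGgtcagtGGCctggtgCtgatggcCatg

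Most of the genes were at low levels, and more of them were higher than lower in the library labelled cKO. Of the 43 genes, 42 had at least 1 count, from 0 to 3119 counts in the library labelled cKO (median 34) and from 0 to 999 in the library labelled WT (median 14). Genes reaching 1 CPM in 1 of the libraries or in both, 30 of the 43, are called measured. In counts of genes, higher or lower means a 2-fold difference, a log2 of (cKO CPM + 1) over (WT CPM + 1) no smaller than 1 in size. A gene or sum named on its own below is called higher or lower where the interval of its ratio excluded 1, which can be less than 2-fold. By the 2-fold rule 13 of the 30 (43.3%) were higher, against 4.56% of all measured genes, and 2 of the 30 (6.67%) were lower, against 8.63%. The filter leans to one side here, because 7 of the 30 passed it through the library labelled cKO alone and none through the library labelled WT alone. Of those 7, Icos, Zap70, Itgae, Prf1 and Nkg7 are among the 13 counted as higher, so part of that count comes from the filter's lean. A filter on the sum of both libraries needs no set level in either library alone. It can still lean, because members could reach it through the library labelled cKO alone, which was also the deeper one. With at least 10 counts over both libraries, 38 genes remained, of which 21 (55.3%) had a plain ratio of CPM of 2 or more and 2 (5.26%) a ratio of 0.5 or less, against 7.72% and 12.1% of all such genes. Low counts scatter widely, and among the 33 genes with 10 to 300 counts the shares were 57.6% and 3.03%, against 14.4% and 19.3% of all genes in that range. The median log2 ratio was 0.85 over the 30 measured genes and 0.51 over all 43, against 0.01 over all measured genes.

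**Figure D1:**
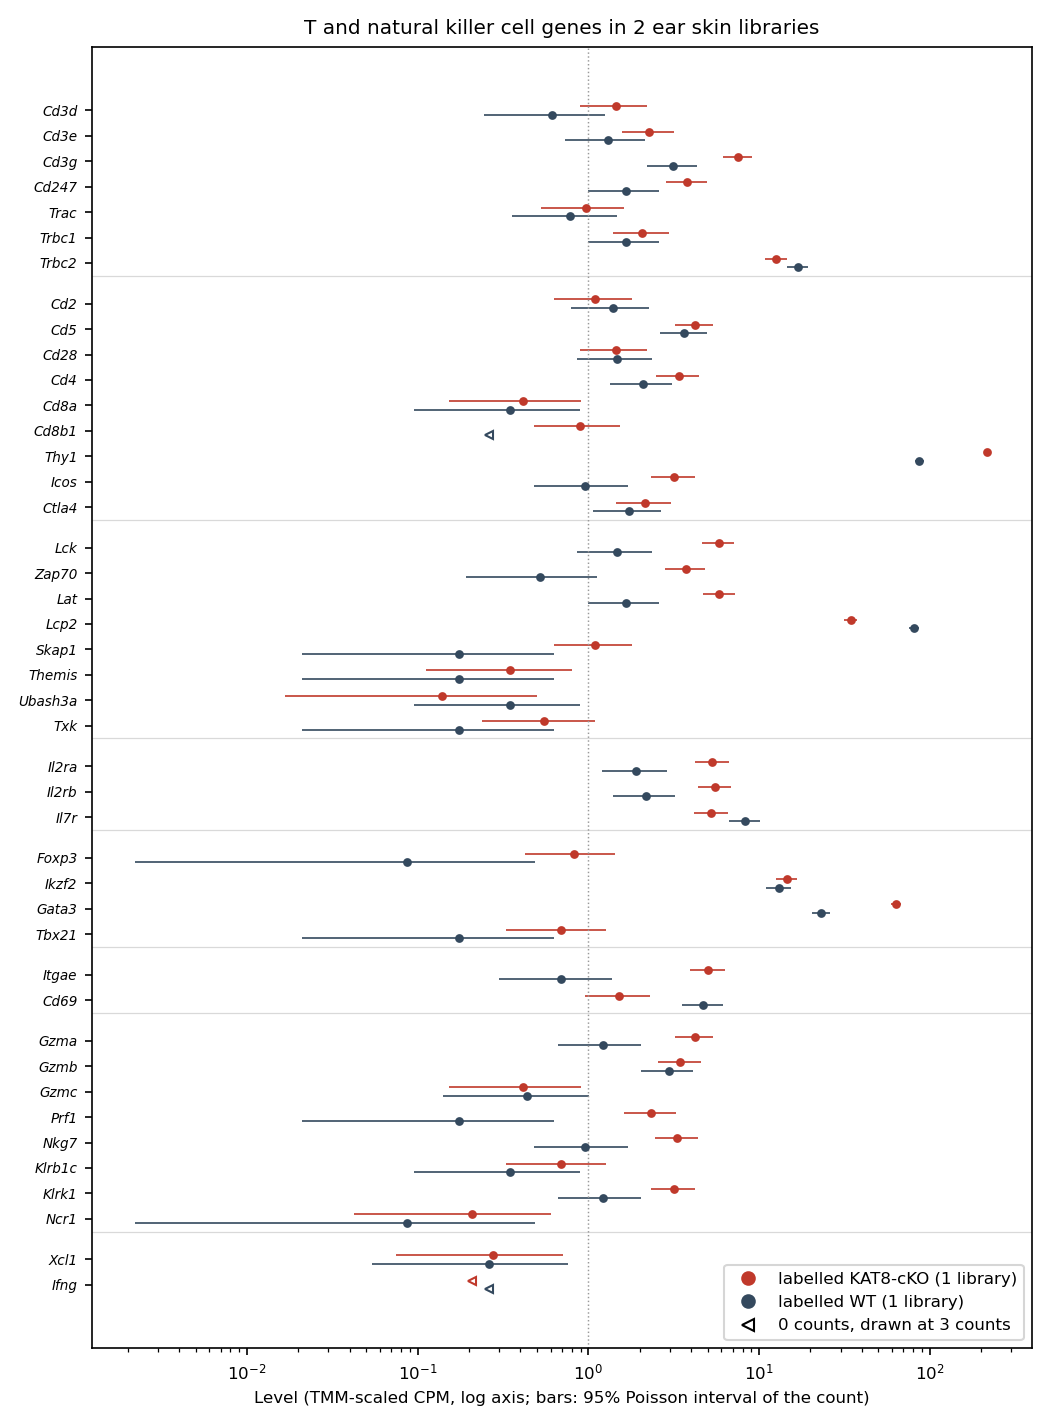
Level of each of the 43 genes in scaled CPM on a log axis, in the library labelled KAT8-cKO (red) above the library labelled WT (dark), with 95% Poisson intervals of the count and genes grouped by role. Open triangles mark 0 counts, drawn at 3 counts, and the dotted line is 1 CPM. Thy1, Lcp2 and Gata3 stand far to the right of the other genes.

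Summed counts were also higher in the library labelled cKO, but 3 genes that are not restricted to lymphocytes carried most of them. All 43 genes together had 6301 counts in the library labelled cKO and 3125 in the library labelled WT, a ratio of CPM of 1.60 (interval 1.53 to 1.67). Thy1, Gata3 and Lcp2 alone took 72.0% of these counts in the library labelled cKO and 70.3% in the library labelled WT. Fibroblasts also make Thy1, keratinocytes also make Gata3, and myeloid and mast cells also make Lcp2. Without Thy1 alone, the gene with the most counts, the ratio of the sum was 1.19. Without the 9 genes known to be made by other skin cells as well (Thy1, Gata3, Lcp2, Lat, Itgae, Ikzf2, Cd69, Il7r and Cd4), the other 34 genes had 1248 and 579 counts, a ratio of 1.71 (1.55 to 1.89). Trbc2 held the most counts among these 34, and without it the remaining 33 had 1066 and 386 counts, a ratio of 2.19 (1.95 to 2.47). The 9 genes left out include Lcp2, Il7r and Cd69, which were lower in the library labelled cKO. They also include Thy1, Gata3, Lat and Itgae, which were higher. Trbc2 was the only other member whose interval lay below 1, so the sum over 33 holds no such member.

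The CD3 chains were higher in the library labelled cKO, whereas the constant genes of the alpha and beta chains were not. Cd3g, Cd3d and Cd3e lie side by side on chromosome 9 (chr9:44969572-44980431, chr9:44981786-44987339 and chr9:44998740-45009627). Cd3g, the gamma chain, had 109 counts in the library labelled cKO and 36 in the library labelled WT, a ratio of 2.40 (1.64 to 3.61). Cd247, the zeta chain that carries the most tyrosine motifs, had 55 and 19 counts, a ratio of 2.30 (1.34 to 4.10), and shares an exon with Pou2f1. For Cd3d (21 and 7 counts) and Cd3e (33 and 15 counts) the intervals of the ratio reached below 1, from 0.975 to 6.63 and from 0.923 to 3.46. Together the CD3 and zeta chain genes had 218 and 77 counts, a ratio of 2.25 (1.73 to 2.95).

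The alpha and beta constant genes gave a different picture. Trbc2 had 182 counts in the library labelled cKO and 193 in the library labelled WT, so it was 1.34-fold lower (1.09 to 1.64) in the library labelled cKO. Trbc1 had 30 and 19 counts (ratio 1.25, 0.683 to 2.36) and Trac, the alpha constant gene, 14 and 9 (ratio 1.23, 0.498 to 3.23). The 3 together had 226 and 221 counts and were 1.23-fold lower (1.02 to 1.49) in the library labelled cKO, though with plain CPM the ratio was 0.907 with an interval that spanned 1 (0.750 to 1.10), and that of Trbc2 did so as well (0.680 to 1.03). The exons shown above mean that the split between Trbc1 and Trbc2 is uncertain, but their sum was 212 counts in each library, 1.26-fold lower (1.04 to 1.53) per total in the library labelled cKO. For every alpha or beta constant count there were 0.965 CD3 chain counts in the library labelled cKO and 0.348 in the library labelled WT. All 7 receptor and CD3 genes summed to a ratio of 1.18 (1.02 to 1.37), or 1.98 without Trbc2.

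Levels per exon length set Trbc2 apart in both libraries. Trbc2 stood at 18.1 CPM per kb of exon in the library labelled cKO and 24.2 in the library labelled WT. The next highest alpha beta or CD3 gene in each library, Trbc1, stood at 2.76 and 2.20 CPM per kb, Cd3g at 2.30 and 0.956, and Trac at 1.03 and 0.836. The delta constant gene Trdc, which belongs to gamma delta T cells and is no member, shares an exon with Trdv5 and had 134 counts in the library labelled cKO and 37 in the library labelled WT, at levels of 2.39 and 0.831 CPM per kb. Per length it therefore stood above Trac in the library labelled cKO and level with it in the library labelled WT. Of Trdc and Trac counts together, Trdc took 90.5% (exact interval 84.6 to 94.7) in the library labelled cKO and 80.4% (66.1 to 90.6) in the library labelled WT, intervals that overlap.

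**Figure D2:**
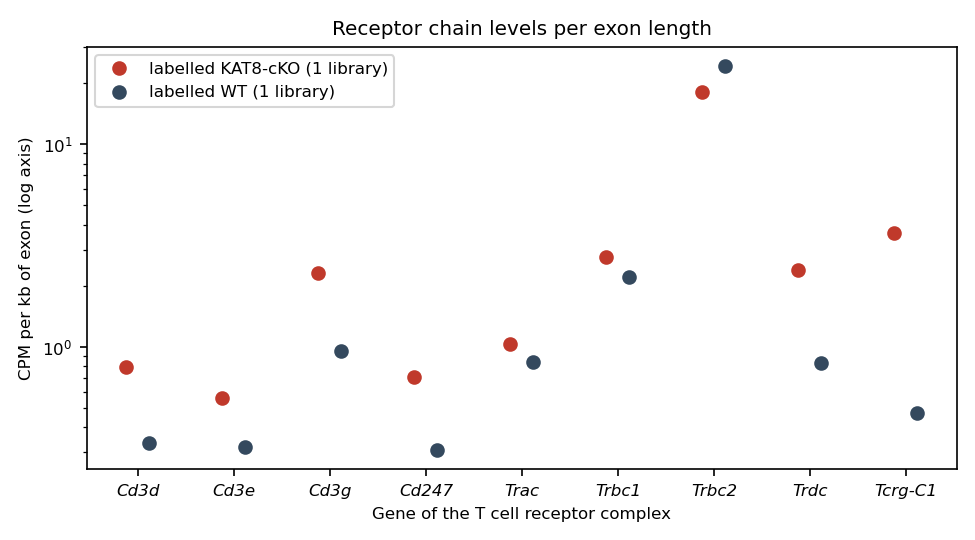
Level per kb of annotated exon, on a log axis, of the CD3 chains, the alpha beta constant genes and the gamma delta constant genes Trdc and Tcrg-C1, with the library labelled KAT8-cKO (red) left of the library labelled WT (dark). Trbc2 was the highest gene in both libraries and the only one of the 9 that was higher in the library labelled WT.

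Among coreceptors and costimulatory receptors, Thy1, Icos and Cd8b1 were higher in the library labelled cKO and the others were not separated by counting error. Thy1, a surface glycoprotein of T cells and fibroblasts (chr9:44043384-44048579), had 3119 counts in the library labelled cKO and 999 in the library labelled WT, a ratio of 2.48 (2.31 to 2.66). The fibroblast marker list of 8 genes summed to a ratio of 1.27 (1.26 to 1.29), with 1 gene at least 2-fold higher and 2 lower, and its part in the Thy1 difference was not tested. Icos, a costimulatory receptor induced on activated T cells, had 46 and 11 counts, a ratio of 3.32 (1.69 to 7.11). It lies on chromosome 1 in a cluster with Cd28 and Ctla4, whose ratios were 0.981 (0.493 to 1.98) and 1.23 (0.679 to 2.28).

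CD8 is made of an alpha and a beta chain, and both genes were near the limit of detection. Cd8b1 had 13 counts in the library labelled cKO and 0 in the library labelled WT, a ratio of 3.44 when 0 is set to a floor of 3 counts. That ratio leaves out the counting error of the 13 counts. Cd8a had 6 and 4 counts, a ratio of 1.19 (0.282 to 5.74), an interval too wide to tell whether the neighbouring chain differed as well. Cd4 had 49 and 24 counts, a ratio of 1.62 (0.976 to 2.76). Cd2, an adhesion receptor of T and NK cells, had 16 counts in each library, and Cd5, an inhibitory receptor of T cells and some B cells, had 61 and 42 (interval of the ratio 0.766 to 1.75). Ctla4, the inhibitory counterpart of CD28, had 31 and 20 counts.

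Of the kinases and adaptors next to the receptor, Lck, Zap70, Lat and Skap1 were higher in the library labelled cKO and Lcp2 was lower. Lck, the first kinase of the cascade (chr4:129548344-129573641), had 84 counts in the library labelled cKO and 17 in the library labelled WT, a ratio of 3.92 (2.31 to 7.05). Zap70, the kinase that docks on phosphorylated CD3 chains, had 54 and 6 counts, a ratio of 7.14 (3.08 to 20.3). Lat, the membrane scaffold that ZAP70 phosphorylates and that mast cells and platelets also use, had 85 and 19 counts, a ratio of 3.55 (2.14 to 6.19). Skap1, an adaptor that links the receptor to integrin adhesion, had 16 and 2 counts, a ratio of 6.35 (1.49 to 56.9). All of these intervals lay above 1, and those of Zap70, Lck and Lat lay above 2. An interval depends on depth, and among the 33 members with 10 to 300 counts 16 (48.5%) lay above 1 and 2 (6.06%) below, against 18.5% and 23.1% of all genes in that range.

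Lcp2, which encodes SLP-76, went the other way. It had 501 counts in the library labelled cKO and 931 in the library labelled WT, 2.34-fold lower (2.10 to 2.61) in the library labelled cKO. Neutrophils and macrophages also make it, and the 10 neutrophil markers summed to 73849 and 162581 counts (2.77-fold lower in the library labelled cKO, 8 of 10 genes at least 2-fold lower) and the 12 monocyte and macrophage markers to 13447 and 25767 (2.41-fold lower, 6 of 12). The part of those cells in the Lcp2 value was not tested. With Lcp2, the 8 signalling genes summed to a ratio of 0.610 (0.554 to 0.671), and without it to 254 and 52 counts, a ratio of 3.88 (2.87 to 5.33), so the direction of the sum turned on 1 gene. Txk, a TEC family kinase, had 8 and 2 counts (ratio 3.18, 0.634 to 30.7). Themis, needed for thymocyte selection, had 5 and 2 counts and Ubash3a, a phosphatase that restrains receptor signalling, 2 and 4, too few for a ratio. Lcp2, Skap1 and Themis share exons with other annotated genes, as do Gata3, Ikzf2, Klrb1c and Xcl1 below, so part of their reads may belong to those.

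**Figure D3:**
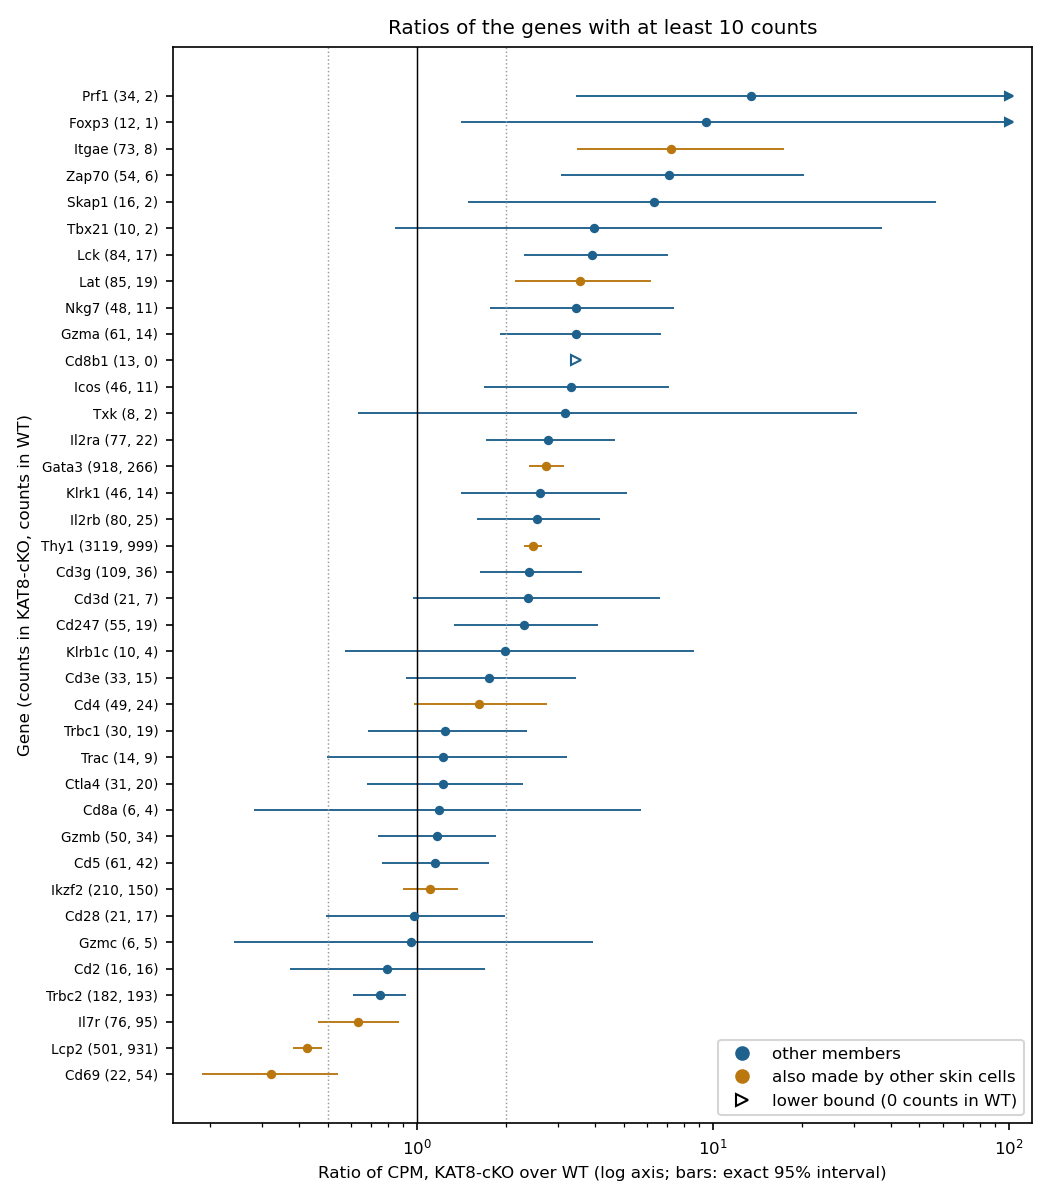
Ratio of CPM, library labelled KAT8-cKO over library labelled WT, on a log axis with exact 95% intervals, for the 38 genes with at least 10 counts over both libraries, sorted by ratio. Counts in the 2 libraries stand beside each name, arrowheads mark intervals beyond the axis, dotted lines mark 2-fold, and genes also made by other skin cells are in orange. The intervals of 18 genes lay above 1, those of 4 genes lay below 1 and those of 16 spanned it. Of all genes with at least 10 counts, the intervals of 30.2% lay above 1 and of 30.2% below. Cd8b1 is among the 18 and is drawn as an open triangle at its ratio with 0 set to 3 counts. The key calls that a lower bound, but it leaves out the counting error of Cd8b1 in the library labelled KAT8-cKO.

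Among the cytokine receptors, the alpha and beta chains of the IL-2 receptor were higher and the IL-7 receptor was lower in the library labelled cKO. Il2ra, the alpha chain found on regulatory and activated T cells, had 77 counts in the library labelled cKO and 22 in the library labelled WT, a ratio of 2.78 (1.71 to 4.69). Il2rb, the beta chain shared by the IL-2 and IL-15 receptors, had 80 and 25 counts, a ratio of 2.54 (1.60 to 4.16). Il7r, which maintains resting T cells and innate lymphoid cells, had 76 and 95 counts and was 1.57-fold lower (ratio 0.635, 0.463 to 0.868) in the library labelled cKO.

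Lineage transcription factors were few in counts apart from Gata3 and Ikzf2. Gata3, a factor of type 2 lymphocytes that epidermis and hair follicles also make (chr2:9857078-9890034), had 918 counts in the library labelled cKO and 266 in the library labelled WT, a ratio of 2.74 (2.39 to 3.15). The 8 keratinocyte markers summed to a ratio of 1.02, with 1 gene higher and 2 lower by 2-fold, and their part in the Gata3 difference was not tested. Ikzf2, which encodes Helios of regulatory T cells and is also made outside the lymphoid lineage, had 210 and 150 counts, a ratio of 1.11 (0.897 to 1.38). Foxp3, the factor that defines regulatory T cells, had 12 and 1 counts, a ratio of 9.53 with an interval from 1.41 to 407. Foxp3 lies on the X chromosome and shares exons with Ccdc22 and Ppp1r3f, so its few reads are uncertain. Tbx21, the T-bet factor of type 1 and cytotoxic cells, had 10 and 2 counts (ratio 3.97, 0.846 to 37.3).

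The gene of tissue residence and the gene of early activation differed in opposite directions. Itgae, the integrin alpha chain CD103 that binds E-cadherin on keratinocytes (chr11:73090583-73147446), had 73 counts in the library labelled cKO and 8 in the library labelled WT, a ratio of 7.24 (3.49 to 17.4). Dendritic cells also make Itgae, and the 16 dendritic and Langerhans cell markers summed to 11751 and 3479 counts, a ratio of 2.68 (2.58 to 2.79). Of the 14 measured, 11 were higher by the 2-fold rule and 0 lower, and their part in the Itgae difference was not tested. Cd69, an early activation receptor of many leukocytes, had 22 and 54 counts and was 3.09-fold lower (1.85 to 5.33) in the library labelled cKO. The part of the neutrophils and macrophages, whose marker lists were lower in the same library, was not tested for Cd69 either.

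Genes of the cytotoxic granule and of NK receptors summed to 258 counts in the library labelled cKO and 85 in the library labelled WT, a ratio of 2.41 (1.88 to 3.12). Prf1, which encodes perforin (chr10:61297833-61304680), had 34 and 2 counts, a ratio of 13.5 (3.46 to 116), the highest plain ratio among members with a count in both libraries but resting on 2 counts in the library labelled WT. Gzma, the granzyme with trypsin-like cleavage, had 61 and 14 counts, a ratio of 3.46 (1.91 to 6.70). Gzmb, the granzyme that activates caspases, had 50 and 34 (ratio 1.17, 0.740 to 1.86), and its neighbour Gzmc on chromosome 14 had 6 and 5. Perforin and granzyme A were therefore separated beyond counting error, and granzymes B and C were not.

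Nkg7, a granule membrane protein of cytotoxic cells, had 48 counts in the library labelled cKO and 11 in the library labelled WT, a ratio of 3.46 (1.77 to 7.40). Klrk1, which encodes the activating receptor NKG2D of NK cells, CD8 T cells and gamma delta T cells, had 46 and 14 counts, a ratio of 2.61 (1.41 to 5.14). The genes more specific to NK cells were scarce, with 10 and 4 counts for Klrb1c (NK1.1; ratio 1.98, 0.572 to 8.67) and 3 and 1 for Ncr1 (NKp46). Xcl1, a chemokine that attracts cross-presenting dendritic cells, had 4 and 3 counts. Ifng, which encodes interferon gamma, had 0 counts in each library, which allows a level of up to 0.207 CPM in the library labelled cKO and 0.260 CPM in the library labelled WT.

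Counts of the lymphocyte genes were also set against those of a separate list of 8 pan-leukocyte markers, and the ratio of the lists was higher in the library labelled cKO. The pan-leukocyte markers, among them the CD45 gene Ptprc, summed to 12359 counts in the library labelled cKO and 16367 in the library labelled WT, 1.67-fold lower in the library labelled cKO. For 1000 counts of those markers, the 34 genes without the broadly made ones had 101 counts in the library labelled cKO and 35.4 in the library labelled WT, a ratio of 2.85 (2.58 to 3.16, from the counts of the 34 genes alone). For 1000 Ptprc counts they had 898 and 290. The gamma delta T cell markers, of which 3 of 9 measured were higher and 1 lower, summed to 739 and 434 counts, a ratio of 1.35 (1.20 to 1.53). Most of that sum came from genes other than the receptor constant genes, of which Trdc gave 134 and 37 counts and Tcrg-C1 49 and 5. B and plasma cell markers summed to 435 and 432 counts (1.25-fold lower in the library labelled cKO, 1.09 to 1.43, but a ratio of 0.893, 0.780 to 1.02, with plain CPM), with none of 4 measured past 2-fold.

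**Figure D4:**
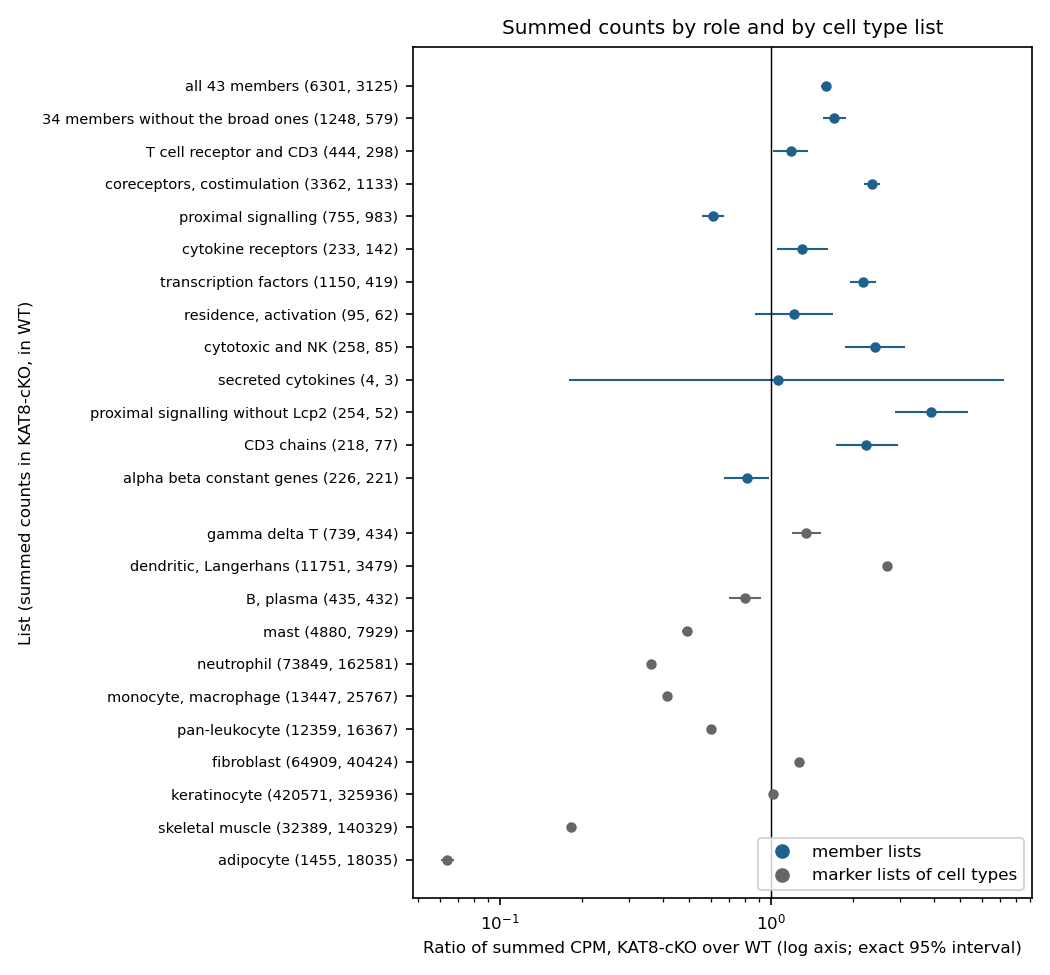
Ratio of summed CPM, library labelled KAT8-cKO over library labelled WT, on a log axis with exact 95% intervals of the counts, for groups of the 43 genes (blue) and marker lists of cell types (grey), with the summed counts of the 2 libraries beside each name. Proximal signalling lies below 1 with Lcp2 and at 3.88 without it, and the CD3 chains (2.25) lie apart from the alpha beta constant genes (0.812).

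Other genes of the pathway were taken from lists of names. Of 30 further receptor signalling genes 26 were measured, of which 3 were at least 2-fold higher and 3 lower in the library labelled cKO (median log2 ratio 0.18), where 4.56% and 8.63% of all measured genes were, so the lower count is near that of all genes. Sit1, an adaptor that tempers receptor signals, had 23 counts in the library labelled cKO and 1 in the library labelled WT, a ratio of 18.3 (2.96 to 752). Prkcq, a protein kinase C of T cells that skeletal muscle also makes, was 4.49-fold lower (92 and 328 counts). The 6 genes of the muscle list were all lower as well (5.46-fold in sum), and the part of muscle in the Prkcq value was not tested. Rac2, a GTPase of all blood cells, was 2.61-fold lower, and the part of other blood cells in its value was not tested either.

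Of 32 further T cell surface and factor genes 27 were measured, with 6 higher and 4 lower (median 0.62), beside the same 4.56% and 8.63%. The costimulatory receptor genes Tnfrsf4 (OX40) and Tnfrsf18 (GITR) had 114 and 28 counts (ratio 3.23, 2.12 to 5.08) and 573 and 155 counts (ratio 2.93, 2.45 to 3.53). The lymphoid factor gene Ikzf3 (Aiolos) had 45 and 7 counts, a ratio of 5.10 (2.28 to 13.4). Of 22 further cytotoxic and NK genes 15 were measured, with 1 higher and 4 lower (median -0.20), beside 4.56% and 8.63% of all measured genes, so the higher count is near that of all genes. The lower ones, Srgn, Il18rap, Fcgr3 and Tyrobp, were 5.66-fold, 4.37-fold, 3.63-fold and 2.83-fold lower. Srgn, Fcgr3 and Tyrobp are also strongly made by myeloid cells, whose marker lists were lower in the same library, and the part of those cells was not tested.

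Promoter letters are shown for Lck, Zap70 and Prf1, whose ratios were among the highest of their roles. RefSeq windows (GRCm38.p6) matched 29 of the 43 genes, with 36 start sites, and the 250 bases before each start were searched on both strands for short core motifs, allowing matches to overlap. Capitals mark TGTGGT or ACCACA, the core bound by RUNX factors, and AGGAAG or CTTCCT, a core bound by ETS factors. For Lck the window of the distal start is shown, which held both motifs, while its other window held 1 ETS core and no RUNX core. For Zap70 the 1 of its 3 windows that held both motifs is shown. Letters were also read for Cd3g, whose window held neither core, and for Cd3d, whose window held 1 ETS core and no RUNX core. The sequences shown are therefore chosen examples.
Lck, minus strand, chr4:129573642-129573891: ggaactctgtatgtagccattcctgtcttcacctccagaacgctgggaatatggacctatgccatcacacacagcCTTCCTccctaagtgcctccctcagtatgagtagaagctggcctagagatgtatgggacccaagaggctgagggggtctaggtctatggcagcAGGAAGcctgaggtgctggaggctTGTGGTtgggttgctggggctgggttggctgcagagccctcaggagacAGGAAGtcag
Zap70, plus strand, chr1:36764265-36764514: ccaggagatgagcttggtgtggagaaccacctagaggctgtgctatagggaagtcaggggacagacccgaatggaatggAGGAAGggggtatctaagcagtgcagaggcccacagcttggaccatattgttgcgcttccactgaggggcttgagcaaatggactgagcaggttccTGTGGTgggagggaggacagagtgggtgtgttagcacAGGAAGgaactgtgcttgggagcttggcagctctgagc
Prf1, plus strand, chr10:61297586-61297835: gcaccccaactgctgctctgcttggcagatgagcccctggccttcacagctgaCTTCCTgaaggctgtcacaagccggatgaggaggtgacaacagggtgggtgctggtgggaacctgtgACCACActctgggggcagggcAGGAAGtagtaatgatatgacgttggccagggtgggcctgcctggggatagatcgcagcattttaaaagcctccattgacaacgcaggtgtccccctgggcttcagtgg
The RUNX core was in 13 of the 36 windows (36.1%), against 14.0% of all 32851 windows. The ETS core was in 21 (58.3%), against 29.5%. A T-box core, TCACAC or GTGTGA, was in 9 of the 36, against 12.3% of all windows, and a GATA core, AGATAA or TTATCT, in 4 (11.1%), against 9.99%. Some windows belong to 1 gene or to related genes such as Gzmb and Gzmc and are not independent, and a match of letters is a description and not a binding site.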

How the data were processed

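Polyadenylated RNA from 2 ear skin specimens was sequenced, 1 per genotype label, per the labels' protocols. The authors deposited unnormalized whole-number counts for each Ensembl gene. Per the submitters' processing notes, HISAT2, StringTie 1.3.0, edgeR and the build mm10 were used, with no roles stated. What counted the reads, on which annotation and with which strand setting, is not given by the labels. If strand was ignored, reads in exons that overlap another gene cannot be told apart, which touches 9 of the 43 genes.

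Symbols and coordinates came from GENCODE M21 (GRCm38, the assembly mm10 names), which matched 34344 of 34745 genes. Counts were divided by library totals times trimmed mean of M values (TMM) factors from edgeR 4.0.16 (R 4.3.3), 1.06 for the library labelled cKO and 0.946 for the library labelled WT. Ratios have Clopper-Pearson intervals and are given for genes with at least 10 counts over both libraries, and a library at 0 is set to 3 counts as a floor. Intervals and floors cover counting error only, since PCR copies are not separate molecules. With 1 library a label, no p-value was computed. The functions were tested on simulated Poisson counts. All 43 genes are named. Of each pathway list, the 4 measured genes with the largest log2 ratios in size are named, except some that are not reported here, and Trdc, Eif2s3y and Xist were named after their values were seen. The genes and lists were chosen with earlier results of these data known. DESeq2 1.42.0 size factors were one alternative. Promoter motifs were chosen after the values were seen.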

Additional observations from a re-analysis of the deposited data

How the results depend on the processing

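No paired analysis was possible because each label has 1 library, and leaving out a replicate was not possible either. Plain CPM, and totals without the 50 most abundant genes, moved the median log2 ratio of all measured genes to 0.16 and 0.11, against 0.01 with TMM. The median log2 ratio of the members that were measured stayed above 0 under all 9 alternatives and was 1.20 with a pseudocount of 0.1 CPM. The count of higher genes was 8 with a filter of 5 CPM, and 21 by plain ratio with at least 10 counts over both libraries, a rule added after the data were seen. The count of lower genes was 1 with the 5 CPM filter, without genes that share exons and by plain ratio at 10 to 300 counts (also added afterwards), and 0 without the 9 broadly made genes. The ratio of the sum over all genes was 1.79 with plain CPM, 1.72 with totals without the 50 most abundant genes, 2.08 without genes that share exons, 1.71 without the broadly made genes, 1.19 without Thy1 and 1.51 without Thy1, Gata3 and Lcp2 (added afterwards). By role, proximal signalling reversed to 3.85 without genes that share exons, 4.07 without the broadly made genes and 3.88 without Lcp2, each of which leaves Lcp2 out, and was 0.681 with plain CPM. The receptor and CD3 sum was 1.98 without Trbc2. Coreceptors were 2.63 with plain CPM, 2.54 without the 50 most abundant genes, 1.40 without the broadly made genes and 1.44 without Thy1. Cytokine receptors were 2.65 without Il7r, which is also the setting without broadly made genes. Transcription factors were 3.97 without genes that share exons, which leaves Tbx21 alone (interval 0.846 to 37.3). They were 5.82 without the broadly made genes, from 22 and 3 counts (1.75 to 30.4), and 1.20 without Gata3, an interval that spanned 1 (0.977 to 1.49). Residence and activation was 0.323 without Itgae, which leaves Cd69 alone, and cytotoxic genes were 3.24 without Gzmb. Lymphocyte counts per pan-leukocyte marker count had a ratio of 3.66 without Trbc2. The other 50 of 80 values stayed within the interval of the reported value or kept their count within 1.5 times. For sums that interval is the counting interval. For the median log2 ratio it is an interval over the 30 ranked genes (0.20 to 1.12), which treats genes as independent and let 0.51 with no filter pass as unchanged. No value could be given for cytokines without Xcl1 (0 counts) or for residence and activation without the broadly made genes. Depth limits the 5 genes with under 10 counts and every ratio with fewer than 10 counts in 1 library.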

Other observations

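Receptor gene segments outside the constant genes had few reads. Pseudogenes included, the 128 alpha variable genes had 2 counts in each library, the 35 beta variable genes 12 in the library labelled cKO and 3 in the library labelled WT, and the 14 beta joining genes 12 and 8. The 6 delta variable genes had 19 and 4 counts, all of them on Trdv4, and the 7 gamma variable genes 15 and 3. The 4 gamma constant genes had 70 and 15 counts. The beta constant genes, at 212 counts in each library, therefore stood beside very few beta variable reads, and what produced that surplus was not tested. These segments were looked at after the values of Trbc2 had been seen.

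Markers that would point to lymph node tissue in a specimen had no counts apart from Cxcl13 and Madcam1. Ccl19, Ccl21a, Cr2 and Glycam1 had 0 counts in each library. Ccl19 and Ccl21a each matched more than 1 gene of the table. How reads that fit several copies were counted is not given, so 0 counts there do not show absence. The list summed to 300 counts in the library labelled cKO and 2643 in the library labelled WT, with only 1 of its 6 genes measured. The specimens also differed in fat and muscle markers. Adipocyte markers summed to 1455 counts in the library labelled cKO and 18035 in the library labelled WT, 15.6-fold lower (14.8 to 16.5) with 5 of 6 genes past 2-fold, and the 6 skeletal muscle markers to 32389 and 140329, 5.46-fold lower (5.39 to 5.52). The part of this difference in tissue make-up in the values of the 43 genes was not tested. Mast cell markers were 2.05-fold lower in sum in the library labelled cKO (1.97 to 2.12), and platelet markers 1.86-fold lower (1.71 to 2.03). Endothelial markers were 1.41-fold lower (1.33 to 1.49), with none of 6 past 2-fold.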
